A study of Mus musculus with 2 samples.

Results

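The clustered protocadherins are cell-surface adhesion proteins that are encoded side by side on mouse chromosome 18 in 3 arrays, alpha, beta and gamma. The listed members number 58 and were found by name in GENCODE M21, a gene annotation of the mouse build mm10. They comprise 12 alpha variable genes, 22 beta genes, 19 gamma variable genes of the A and B types, and 5 C-type genes, Pcdhac1, Pcdhac2, Pcdhgc3, Pcdhgc4 and Pcdhgc5. The annotation holds 21938 protein-coding genes on the main chromosomes. It counts 57 of the members among them and gives Pcdhgb8 another gene type.

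In the alpha and gamma arrays each variable exon has its own promoter, and its transcript is spliced to a shared set of constant exons. Beta genes have no constant exons. A single neuron is known to use a small and largely random choice of the variable promoters, so that neighbouring neurons carry different combinations of these proteins at their surface, whereas C-type promoters are used by more uniform sets of neurons. CTCF, a DNA-binding protein that holds chromatin loops together with the cohesin complex, brings variable promoters to enhancers that lie beyond the variable exons.

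DNase-seq maps where nuclear DNA is open to cleavage by the enzyme DNase I, and a footprint is a short protected stretch inside such open DNA. The data are 2 libraries from frontal cortex of female B6CASTF1/J mice, an F1 cross between B6 and CAST, aged 36 days. The labels number them biological replicates 1 and 2 of a single group, name no treatment, carry 1 donor label for both, and do not say whether each came from its own animal, so the spread between them may be technical. With 1 group of 2 replicates there is no test between conditions, and members of an array, which share sequence and neighbours, are not replicates of one another.

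Each library came with 2 peak lists. The shorter list held 29700 peaks in replicate 1 and 66512 in replicate 2, and the longer list 56015 and 117579. Footprints numbered 112826 in replicate 1 and 250543 in replicate 2. The peak signal is the authors' read-depth normalized density, and its smallest step gives 84.9 M tags in replicate 1 and 103 M in replicate 2 if that step is 1 tag. Replicate 2 thus had 2.24 times the peaks of the shorter list at 1.21 times the tags, and a member seen in replicate 2 alone is read beside that gap. Of 10 marker genes of excitatory neurons, 6 were called at the promoter in both replicates, against 1 of 10 inhibitory neuron, 3 of 10 oligodendrocyte lineage, 4 of 10 astrocyte, 1 of 10 microglia and 0 of 10 vascular markers, beside 50.8% of all protein-coding genes. In such bulk tissue, fewer cells with an open promoter and less opening per cell cannot be told apart.

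Most clustered protocadherin promoters had no called peak in this tissue. A promoter peak was any peak that overlapped the 500 bp to either side of an annotated start site. Peaks of the shorter list lay at 3 of 58 members in both replicates, or 5.17% (95% Wilson interval 1.78% to 14.1%), against 50.8% of all protein-coding genes. All 3 were C-type genes: Pcdhac1, Pcdhac2 and Pcdhgc3.

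Replicate 1 by itself gave the same 3 members, against 51.0% of protein-coding genes. Replicate 2 gave 8 members, or 13.8%, against 60.0% of protein-coding genes. The 5 members added there were Pcdhb4, Pcdhb10, Pcdhgb8, Pcdhga12 and Pcdhgc5. No member was called in replicate 1 alone, so the count over either replicate was also 8, against 60.2% of protein-coding genes.

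The longer list added further peaks, not all of them weaker than those of the shorter list. In replicate 2, for example, Pcdhgc4 had 1.13 in the longer list only, against 0.573 for Pcdhb10 in the shorter list. With the longer list 4 members had a promoter peak in both replicates, the same 3 and Pcdhga12, against 57.9% of protein-coding genes. It reached 5 members in replicate 1, against 58.2% of protein-coding genes, and 18 members in replicate 2, or 31.0%, against 64.4%. Another 11 members had a peak of the longer list alone, each in 1 replicate: Pcdha5, Pcdha11, Pcdha12, Pcdhb2, Pcdhb7, Pcdhb14, Pcdhb17, Pcdhgb6, Pcdhgb7, Pcdhga11 and Pcdhgc4. Over both lists and either replicate 19 members had a promoter peak, against 64.7% of protein-coding genes.

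That left 39 members with no peak in either list of either replicate. They were 9 of the 12 alpha variable genes, Pcdha1, Pcdha2, Pcdha3, Pcdha4, Pcdha6, Pcdha7, Pcdha8, Pcdha9 and Pcdha10. They were also 16 of the 22 beta genes, Pcdhb1, Pcdhb3, Pcdhb5, Pcdhb6, Pcdhb8, Pcdhb9, Pcdhb11, Pcdhb12, Pcdhb13, Pcdhb15, Pcdhb16, Pcdhb18, Pcdhb19, Pcdhb20, Pcdhb21 and Pcdhb22. The other 14 were gamma variable genes, Pcdhga1, Pcdhga2, Pcdhga3, Pcdhgb1, Pcdhga4, Pcdhgb2, Pcdhga5, Pcdhga6, Pcdhga7, Pcdhgb4, Pcdhga8, Pcdhgb5, Pcdhga9 and Pcdhga10. No C-type gene was among them.

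**Figure D1:**
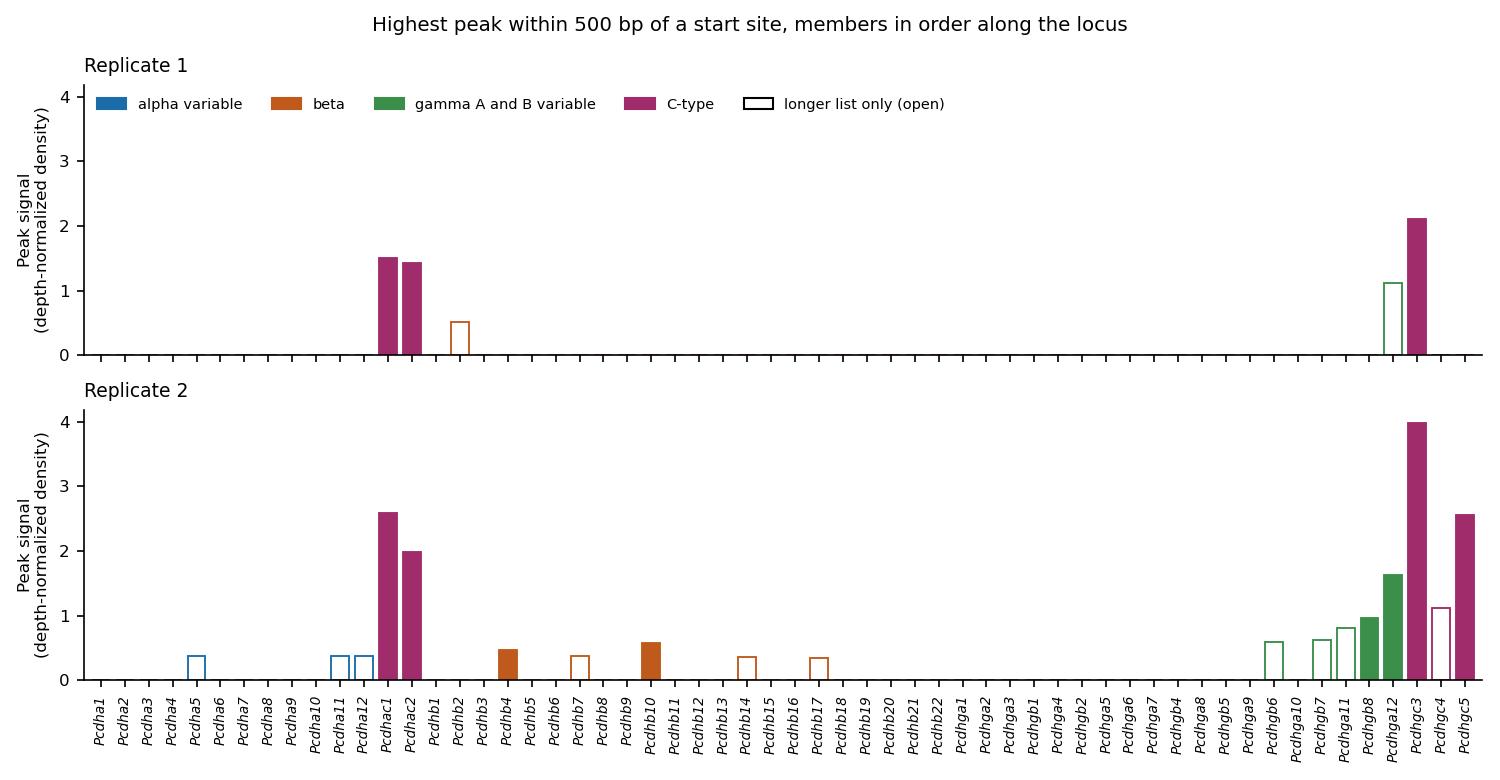
Highest peak signal within 500 bp of a start site for each of the 58 members in their order along the locus, in replicate 1 (top) and replicate 2 (bottom); filled bars are peaks of the shorter list and open bars peaks of the longer list only, with colours for the 4 classes. The tallest bar in both replicates is Pcdhgc3, at 2.11 and 3.99, and 39 members have no bar in either replicate.

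The classes were set side by side by their counts. In both replicates the shorter list marked 3 of 5 C-type genes, or 60.0% (Wilson interval 23.1% to 88.2%), 0 of 12 alpha variable genes (0% to 24.2%), 0 of 22 beta genes (0% to 14.9%) and 0 of 19 gamma variable genes (0% to 16.8%), against 50.8% of all protein-coding genes. The intervals treat each gene as an independent draw, which members of an array are not, so they are no test of a class against that share. In replicate 2 the longer list marked 5 of 5 C-type, 3 of 12 alpha variable, 5 of 22 beta and 5 of 19 gamma variable genes. The shares of the 3 variable classes there were close to each other, at 25.0%, 22.7% and 26.3%, and each was below the 64.4% of all protein-coding genes.

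**Figure D2:**
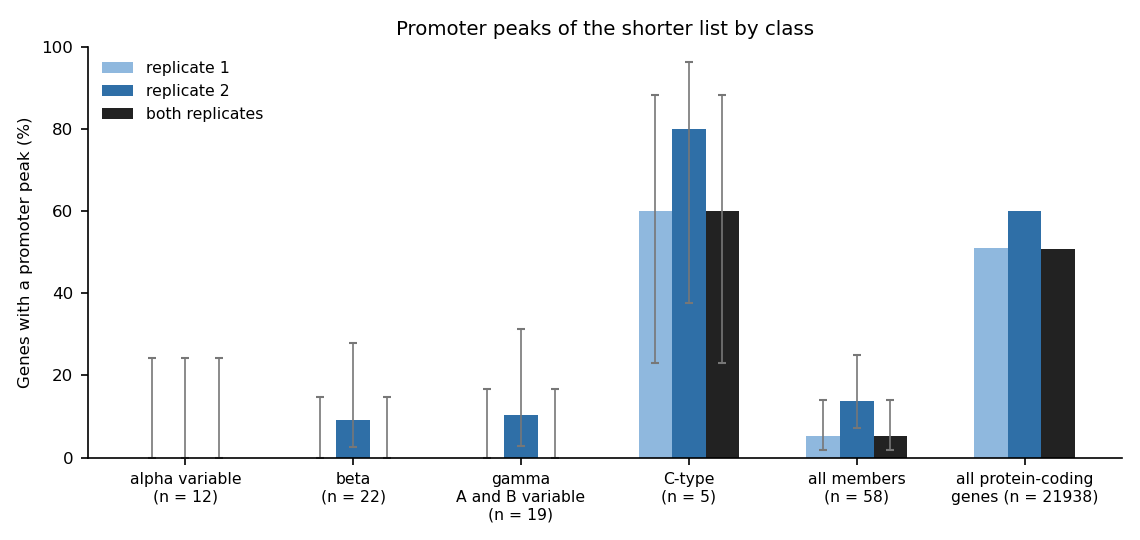
Percentage of genes with a promoter peak of the shorter list in replicate 1, replicate 2 and both, for the 4 classes, all 58 members and, at the right, all 21938 protein-coding genes; bars start at 0 and error bars are 95% Wilson intervals that cover counting error only. Between 60.0% and 80.0% of the 5 C-type genes are marked, and at most 10.5% of each other class.

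The highest promoter signals of the family, 3 in replicate 1 and 4 in replicate 2, were all at C-type genes. Pcdhac1, the first alpha C-type exon, reached 1.51 in replicate 1, at chr18:37089841-37090020, and 2.58 in replicate 2, at chr18:37089861-37090120 (mm10). Pcdhac2, an isoform known for its role in the tiling of serotonergic axons, had 1.43 in replicate 1 and 1.98 in replicate 2, with the middle of the peak 296 and 198 bp past the start site, inside the exon. Pcdhgc3, a gamma C-type gene linked to dendrite branching, had 2.11 and 3.99, with the peak middle 59 and 69 bp before the start site. As means of the 2 replicates these come to 2.05 ± 0.76, 1.70 ± 0.39 and 3.05 ± 1.33 (SD, n = 2), and Pcdhac1 was above Pcdhac2 in each library. These SDs include the higher level of replicate 2 at most shared peaks.

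Against other genes with a promoter peak, Pcdhgc3 lay near the middle, and Pcdhac1 and Pcdhac2 lay lower. Among protein-coding genes with a promoter peak of the shorter list, 24.3% had a lower signal than Pcdhac1, 21.5% lower than Pcdhac2 and 44.8% lower than Pcdhgc3 in replicate 1. In replicate 2 the shares were 35.1%, 24.8% and 57.4%. The signal of replicate 2 was 1.71 times that of replicate 1 at Pcdhac1, 1.39 times at Pcdhac2 and 1.89 times at Pcdhgc3. The median log2 ratio over these 3 was 0.78, with a range of 0.47 to 0.92, beside 0.79 over the 11152 protein-coding genes with a promoter peak in both replicates.

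Pcdhgc5 and Pcdhgc4, the last C-type exons of the gamma array, were seen in replicate 2 alone. Pcdhgc5, whose protein is known to bind GABA-A receptors, had no peak in either list of replicate 1 and a signal of 2.56 in replicate 2, at chr18:37819215-37819413, 199 bp before its main start site. That value was as high as the 2.58 of Pcdhac1 in the same library. Pcdhgc4, an isoform needed for the survival of cortical interneurons, had no peak in replicate 1 and a peak of the longer list at 1.13 in replicate 2. Its middle lay 314 bp past the start site of the longest coding transcript and 8 bp from another annotated start.

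Footprints sat in the same windows. Pcdhac2 held 12 footprints in replicate 1 and 10 in replicate 2, of which 5 of the replicate 1 set overlapped one of replicate 2. Pcdhac1 held 3 and 7, with 2 of the 3 overlapping, and Pcdhgc3 held 6 and 3, with 4 of the 6 overlapping. Pcdhgc5 had 0 in replicate 1 and 8 in replicate 2, and Pcdhgc4 0 and 2. The deposited footprint score is the same for every footprint, so it gives no rank among them.

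**Figure D3:**
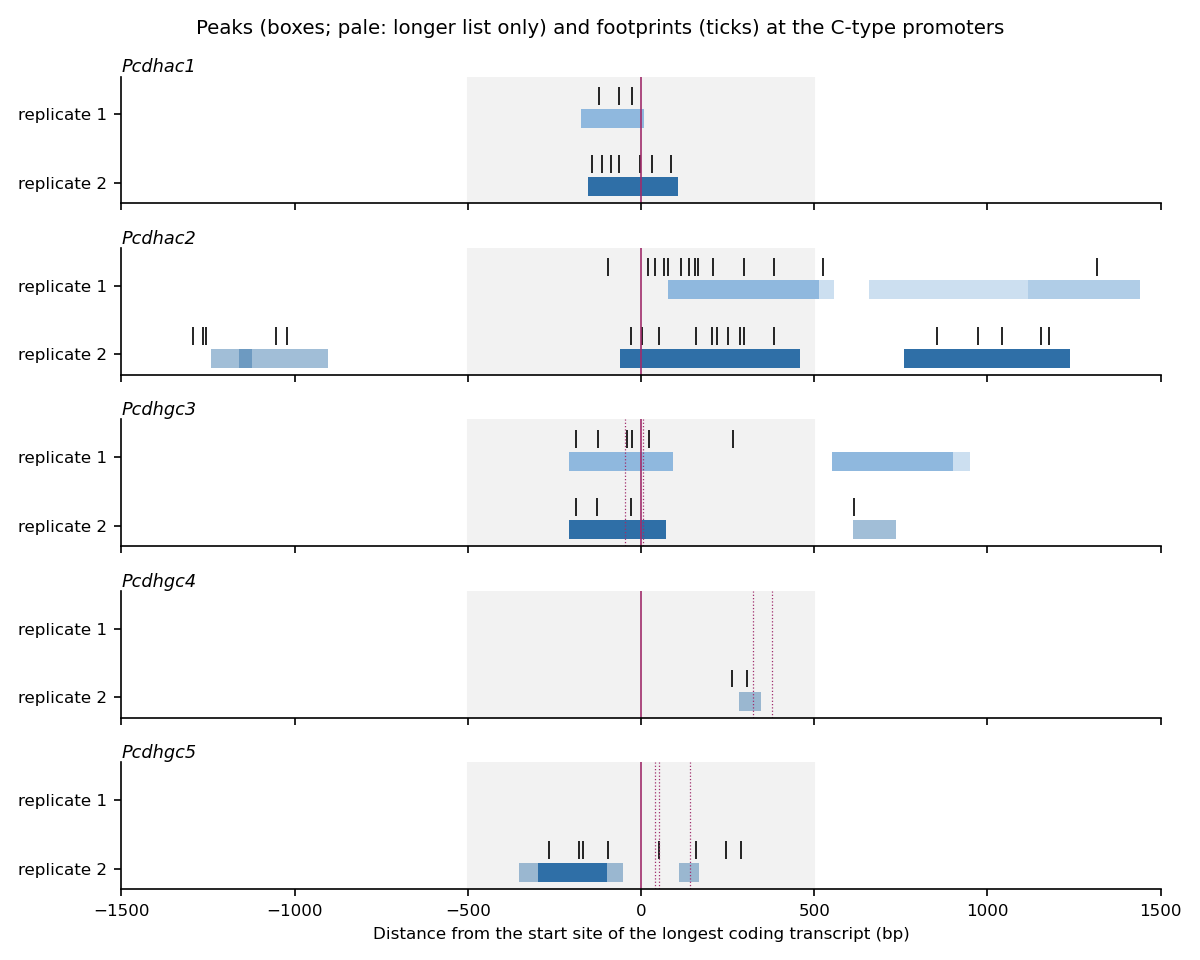
Peaks (boxes, paler where only the longer list has them) and footprint centres (ticks) in both replicates within 1500 bp of the start site of each C-type gene; the solid line is the start site of the longest coding transcript, dotted lines are other annotated start sites and grey marks the 500 bp to each side. Boxes of both replicates overlap at Pcdhac1, Pcdhac2 and Pcdhgc3, and replicate 1 has no box at Pcdhgc4 or Pcdhgc5.

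Open DNA at Pcdhac2 reached beyond the promoter window. In replicate 2 the shorter list had a further peak of signal 1.57 with its middle 998 bp past the start site, and the longer list had peaks as far as 6023 bp past it. In replicate 1 the longer list had a peak of 0.90 there, 1049 bp past the start. Pcdhgc3 likewise had a further peak inside its exon, at 1.07 in replicate 1, and at 1.27 in replicate 2 in the longer list.

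Few members held a footprint. A footprint in the promoter window occurred in both replicates at 4 of 58 members (6.90%), Pcdhac1, Pcdhac2, Pcdhgc3 and Pcdhga12, against 55.1% of protein-coding genes. In replicate 1 it occurred at 5 members, against 55.5%, and in replicate 2 at 15 members, against 62.3%. None of the 12 alpha variable genes held a footprint in either replicate.

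The cleavage-rate table gave a finer view, since it lists every base with a false discovery rate (FDR) of 0.05 or less. Within 500 bp of the main start site, 6 of 58 members (10.3%) had such a base in both replicates, against 54.6% of protein-coding genes. In replicate 1 there were 7, against 54.9%, and in replicate 2 there were 20, against 60.9%. At an FDR of 0.001 or less the count in both replicates was 3, against 47.8%, and these were the C-type genes Pcdhac1, Pcdhac2 and Pcdhgc3. At that limit there were 3 members in replicate 1, against 47.9%, and 8 in replicate 2, against 56.4%. Pcdhac1 had 887 bases at 0.05 or less in replicate 1 and 999 in replicate 2, Pcdhac2 643 and 670, and Pcdhgc3 924 and 671. These counts cover most of each window. The median over all protein-coding genes, which include those without any such base, was 206 bases in replicate 1 and 522 in replicate 2. The 3 genes were picked for peaks from the same libraries, so lying above that median is no separate support. Over 456 other protein-coding genes of chromosome 18 the medians were 514.5 and 738.5 such bases. Pcdhac2 and Pcdhgc3 lay below the latter in replicate 2. Of the 39 members without a peak, 37 had no such base in either replicate, and Pcdhb1 and Pcdhb21 had at most 26.

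Among the gamma variable genes, peaks gathered at the 3′ end of the array. Pcdhga12, the last of them, had a peak of the longer list at 1.12 in replicate 1 and one of the shorter list at 1.63 in replicate 2. Its neighbour Pcdhgb8 had no peak in replicate 1 and 0.961 in replicate 2. In the longer list of replicate 2, Pcdhga11 had 0.806, Pcdhgb7 0.631 and Pcdhgb6 0.592, all without a peak in replicate 1. From Pcdhgb6 on, 5 of 6 gamma variable genes had a peak in some list, Pcdhga10 being the exception, and 0 of the 13 before Pcdhgb6 had one. Of all protein-coding genes, 64.7% had a promoter peak of the longer list in either replicate. The split at Pcdhgb6 was chosen after the values were seen and is a description only.

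The same 5 genes held the gamma footprints outside the C-type exons. Pcdhga12 had 1 footprint in replicate 1 and 6 in replicate 2, and the single one of replicate 1 overlapped one of replicate 2. Pcdhgb8 had 0 and 4. A further pair of peaks lay 2721 bp past the start of Pcdhga12, beside the start site of the noncoding gene Gm26672, with signals of 0.872 in the longer list of replicate 1 and 1.63 in replicate 2.

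Beta gene peaks were few and weak. Pcdhb10 had no peak in replicate 1 and 0.573 in replicate 2, and Pcdhb4 none and 0.476. Both were near the bottom of promoter peaks in that library, where 1.58% of protein-coding genes with a peak had a lower signal than Pcdhb10 and 0.843% lower than Pcdhb4. The longer list of replicate 2 added Pcdhb7 at 0.369, Pcdhb14 at 0.359 and Pcdhb17 at 0.350. Pcdhb2 was the reverse case, with 0.518 in the longer list of replicate 1 and no peak in replicate 2. Pcdhb1, which is known to lack the conserved promoter element found in other beta genes, was among the 16 beta genes with no peak in any list. The part of that element was not tested.

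No alpha variable gene had a peak of the shorter list in either replicate. Pcdha5 had 0.379, Pcdha11 0.369 and Pcdha12 0.369, all in the longer list of replicate 2 alone and with no footprint. Their peak middles lay 111, 502 and 270 bp past the main start sites. Pcdha1, the first gene of the array, had no peak in any list of either replicate.

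Near-identical copies can lower what is mapped, so the share of 32-base words that occur once in the genome was taken over each promoter window. It had a median of 77.9% over alpha variable genes, 100% over beta genes, 97.7% over gamma variable genes and 100% over C-type genes, beside 100% over 456 other protein-coding genes of chromosome 18. The alpha variable class thus had the lowest median uniqueness, and the part of mapping in its few peaks was not tested. Within the class Pcdha5, Pcdha11 and Pcdha12, which had a peak of the longer list in replicate 2 alone, had 77.5%, 73.2% and 76.6%. Of the 9 alpha variable genes without a peak, 8 had under 90% unique words, and Pcdha8 was the highest at 90.6%. Among the 39 members with no peak, 22 had at least 95% unique words and 11 had only unique words, of which 9 were beta genes. Pcdhga12 and Pcdhgb8, which had peaks, were fully unique, whereas Pcdhgb6 and Pcdhgb7 had 80.4% and 81.1%. The cross of B6 and CAST brings sequence differences between the alleles, and their effect on mapping was not tested.

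Members with and without a peak had close median CpG contents when the classes were pooled. The ratio of observed to expected CpG had a median of 0.57 over the 19 members with a peak in either list and 0.55 over the 39 without, beside 0.57 over all protein-coding genes. By class the medians were 0.67 for C-type, 0.69 for alpha variable, 0.38 for beta and 0.59 for gamma variable genes. The pooled medians mix these classes, so they do not show how peaks and CpG go together within a class. Alpha variable genes, with the highest median ratio of the 4 classes, had the fewest peaks of the variable classes in the shorter list of replicate 2, at 0. Within the C-type class Pcdhgc5 was the lowest, at 0.233, and Pcdhgc3 the highest, at 0.798. The share of G and C bases ran from 50.45% to 58.44% in C-type windows. It reached at most 46.95% in alpha variable, 49.75% in beta and 49.95% in gamma variable windows.

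**Figure D4:**
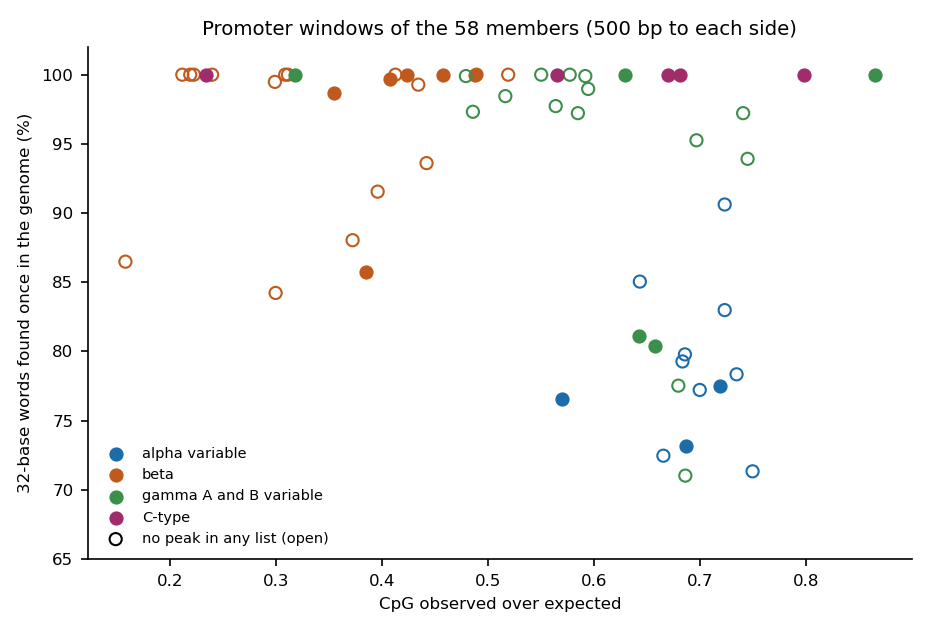
Each point is the promoter window of 1 member, with observed over expected CpG across and the percentage of 32-base words found once in the genome upward; colours are the classes, filled points have a peak in some list and open points have none. All 5 C-type windows lie at 100% unique words, and the 12 alpha variable windows lie between 71.3% and 90.6%.

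CTCF is known to bind at many of these promoters, and matches to its core consensus, 12 bases long and searched on both strands, were counted. Within 500 bp of the main start site an exact match occurred at 1 of 58 members, Pcdha1, against 1.01% of protein-coding genes. Within 1000 bp it occurred at 6 members, all of them alpha variable, against 1.67% of protein-coding genes. With 1 mismatch allowed, 4 members had a match within 500 bp, against 11.8%, and 13 within 1000 bp, against 20.5%. No match in a window says only that these letters are absent there.

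The exact matches fell at recurring places inside the variable exons. Those of the alpha array lay 464 to 586 bp past the start sites of Pcdha1, Pcdha4, Pcdha6, Pcdha7, Pcdha8 and Pcdha12. In the beta array 13 matches lay 2276 to 2815 bp past the start sites, within the single exons of 13 genes such as Pcdhb3, Pcdhb10 and Pcdhb22. Exons of 1 array are copies of each other, so these matches are not independent. None of these 19 matches held a footprint in either replicate, and the one in Pcdha12 alone lay under a peak, of signal 0.398 in the longer list of replicate 2. A footprint is defined inside open DNA, so without a peak its absence does not show that CTCF was unbound. The share of all exact matches in the genome that hold a footprint was not computed.

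Exact matches with a footprint were found outside the arrays. Of 23 in the whole locus, 3 held a footprint in both replicates. One lay at chr18:37217468-37217479, between the alpha and beta arrays. Another lay at chr18:37883728-37883739, downstream of the gamma array within Diaph1, and the last at chr18:37984467-37984478, at the Arap3 promoter. Among shorter-list peaks of the locus, 2 of 25 held an exact match in replicate 1 and 2 of 34 in replicate 2, or 5.88%, beside 8.16% and 6.29% of all peaks of these lists.

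Around the promoters, peaks were unevenly spread along the locus. From the first alpha start site to 200 kb past the gamma array, over 1112 kb, the shorter list held 25 peaks in replicate 1 and 34 in replicate 2. Of the replicate 1 peaks 24 were shared with replicate 2, which is 2.16 per 100 kb against 0.921 on chromosome 18. The beta array had 0 shared peaks over 260 kb, the alpha variable array 2 over 226.5 kb, and the gamma variable array 1 over 163.7 kb, or 0.883 and 0.611 per 100 kb for the alpha and gamma arrays. The 200 kb downstream of the gamma array held 17 shared peaks, or 8.5 per 100 kb. The high value for the locus therefore came mainly from the stretch beyond the arrays, which holds other genes.

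**Figure D5:**
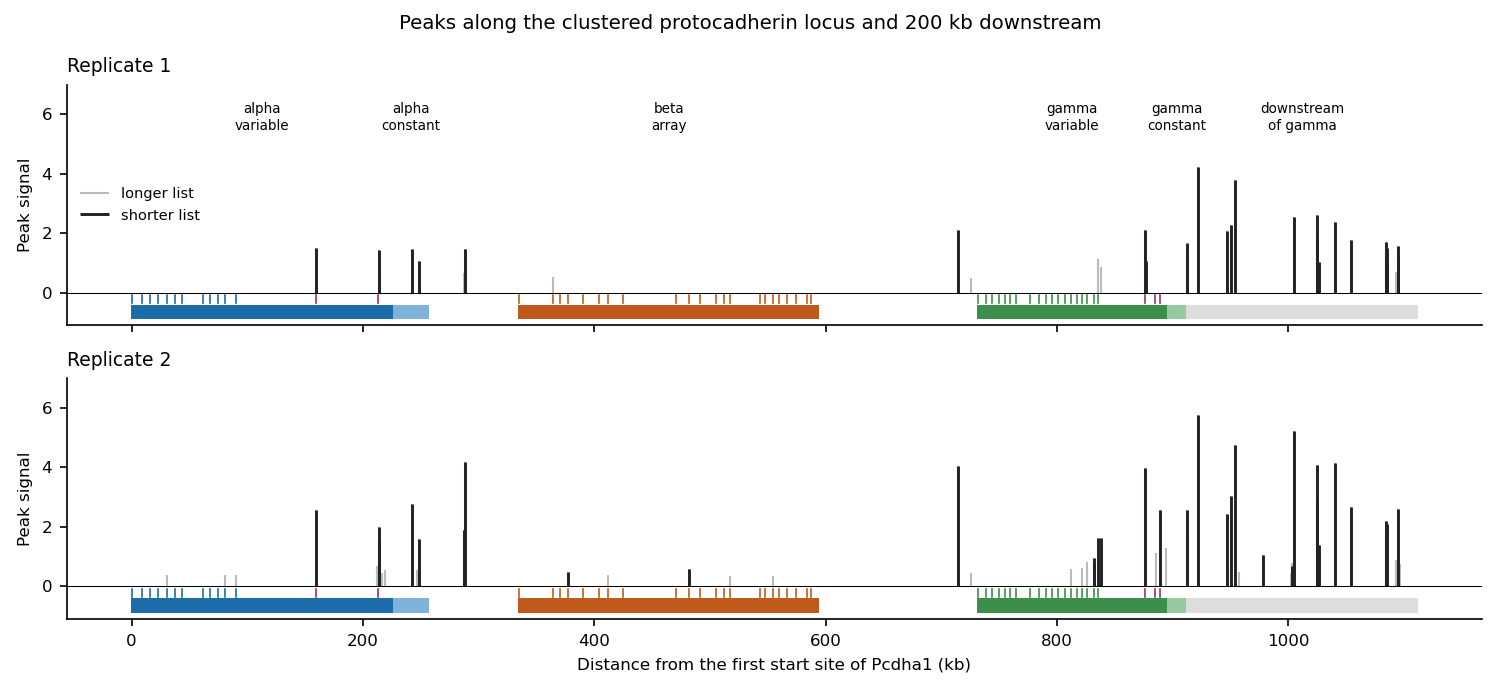
Peak signal along the locus in replicate 1 (top) and replicate 2 (bottom) against distance from the first start site of Pcdha1; black lines are peaks of the shorter list and grey lines peaks of the longer list, coloured blocks are the arrays and constant exons, and ticks above them are the members' start sites. Lines are sparse over the beta array and dense in the 200 kb downstream, where the tallest line reaches 4.24 in replicate 1 and 5.76 in replicate 2.

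The constant exons themselves were bare of calls. None of the 3 alpha and 3 gamma constant exons held a peak of either list or a footprint in either replicate. The last gamma constant exon came nearest, with a peak of the shorter list 849 bp away in replicate 1 and 848 bp in replicate 2.

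Between alpha constant exons 2 and 3, however, both replicates had a pair of shared peaks. One, at chr18:37172338-37172482 in replicate 1, measured 1.46 in replicate 1 and 2.76 in replicate 2. It lay in an exon of the gene Gm38097, 154 bp from a start site of that gene. The other, at chr18:37178481-37178580, had 1.06 and 1.58 and lay 9 bp from a start site of Gm10544. This intron region is where an enhancer of the alpha array is known to lie, and the peaks were not matched to any published element.

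Past the alpha array, a group of peaks stood alone in the gap before the beta genes. The strongest, at chr18:37218221-37218460, 30.7 kb past the last alpha constant exon, measured 1.47 in replicate 1 and 4.18 in replicate 2. Its ratio of 2.84 was the highest of the 24 shared pairs in the locus, whose median log2 ratio was 0.65, and 99.5% of all 27469 shared peaks had a lower ratio. Nearby peaks of the longer list in replicate 1, at 0.648 and 0.554, overlapped peaks of the shorter list in replicate 2, at 1.89 and 1.69, and the first of these held the footprinted CTCF match. The nearest annotated start site, that of Gm10544, was 38849 bp from the nearest of them.

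Downstream of the gamma array several strong peaks lay more than 500 bp from any annotated start site, and the one with the highest signal in the locus in both replicates was among them. A peak 10.4 kb past the last gamma constant exon, at chr18:37852161-37852400, had 4.24 in replicate 1 and 5.76 in replicate 2, above 97.5% and 96.3% of all peaks of those lists. A second, 41.8 kb past it at chr18:37883561-37883760, had 3.80 and 4.74. Smaller ones at 35.5 and 38.4 kb had 2.06 and 2.27 in replicate 1 and 2.42 and 3.03 in replicate 2, and one 0.887 kb past the exon had 1.68 and 2.56. The peaks from 10.4 to 41.8 kb lie within Diaph1, which encodes a formin that nucleates actin filaments, and none of them overlaps an annotated exon. The first of them is 1126 bp from an alternative Diaph1 start site. Every shared peak of the locus had a higher signal in replicate 2, as did 96.5% of all shared peaks.

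Of 10 other protein-coding genes with a start site in the locus or the 200 kb downstream, 6 had a promoter peak in both replicates. That is near the 50.8% of all protein-coding genes. Taf7, which encodes a subunit of the general transcription factor TFIID and lies between the beta and gamma arrays, had 2.10 in replicate 1 and 4.06 in replicate 2. Diaph1 had 2.56 and 5.21, Hdac3 and Rell2 shared a peak at 2.60 and 4.08, Fchsd1 had 2.38 and 4.15, and Arap3 1.78 and 2.67. Slc25a2, a mitochondrial transporter gene next to Taf7, had no promoter peak in either list, nor did Gm42416, Gm37013 and Gm37388, gene models that span much of the arrays.

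Other genes tied to the pathway were mostly open. Of 18 chromatin regulators of the clusters, including cohesin subunits and the silencing factor Smchd1, 14 had a promoter peak of the shorter list in both replicates (77.8%, against 50.8% of protein-coding genes), and Ctcf, Stag2, Dnmt3b and Rest had one in replicate 2 alone. Of 9 cytoplasmic partners of the proteins, such as the kinase Fyn and members of the WAVE complex, 7 had one in both, and Ptk2b and Cyfip2 in replicate 2 alone. Of 10 non-clustered protocadherins 7 had one in both (70%), against 3 of the 58 clustered members. In replicate 2 every gene of these 3 lists had a promoter peak of the shorter list, against 60.0% of protein-coding genes. In replicate 1 every gene of these 3 lists had a promoter peak of the longer list, against 58.2% of protein-coding genes. Among those without a shorter-list peak in replicate 1, signals in the longer list ran from 0.46 at Dnmt3b to 2.085 at Ctcf.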

How the data were processed

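DNase-seq peak lists, footprints and cleavage-rate tables of 2 libraries were analysed. Per the labels they are on mm10 and each comes from 1 replicate. The labels and file headers do not name the aligner, the callers or their versions. The peak lists deposited by the authors give a signal, a read-depth normalized density. The cleavage table deposited by the authors gives an FDR, an adjusted p-value, listed up to 0.05. The footprint score deposited by the authors is constant. Wilson intervals are over counts of genes and cover counting error only. They treat each gene as an independent draw, which members of an array are not.

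GENCODE M21 and the GRCm38 sequence, the same build, were used with Python 3.11.15, numpy 2.4.6, pandas 2.3.3 and scipy 1.17.1. GENCODE M21 names 2 genes Pcdha11, and the one that RefSeq places as Pcdha10 was called that. Of each library's 2 peak lists the one with fewer peaks was the shorter list. A peak was called at a promoter when it overlapped by 1 bp or more the 500 bp to each side of any annotated start site, and sequence and cleavage features used 1 start site per gene, that of the longest coding sequence among basic transcripts. Peaks overlapping by 1 bp were shared, and a member without a peak was given a signal of 0. Overlap counting was tested on simulated data. Alternatives were window sizes, 1 start site, the longer list, stronger peaks, equal list lengths, overlap of 50% and leaving out each replicate.

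All members were accounted for. Values were printed for C-type genes, the 3 highest members of each array (ties by symbol) and members with a peak in 1 replicate alone, and members without a peak were named. Members, gene lists and measures were chosen with earlier results of these data known. No test between groups could be made, since there is 1 group. No sequence is printed.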

Additional observations from a re-analysis of the deposited data

How the results depend on the processing

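The 3 members with a shorter-list promoter peak in both replicates became 3 to 8 when 1 replicate was left out (8 without replicate 1, with 2 beta and 2 gamma variable genes where both replicates gave 0 of each, so those ranges are 0 to 2). Footprints were called in both replicates at 4 members and at 5 to 15 in single replicates, the 15 being replicate 2. The longer list gave 1 gamma variable gene in both (0 in the shorter list). It also gave 4 shared peaks in the alpha variable array (2), 3 between alpha and beta (1), 2 between beta and gamma (1) and 4 in the gamma variable array (1). Leaving out a replicate gave 1 to 3 peaks between alpha and beta, 0 to 2 in the beta array and 2 to 6 in the gamma variable array. Keeping the 50% of peaks with the highest signal left 1 shared peak near the alpha constant exons (2). CTCF matches at 1 member became 4 with 1 mismatch and 6 within 1000 bp. Of all alternatives, 91 values kept within a set limit and 16 did not. For counts the limit was 1.5 times of the reported count, and 0 beside 0 also kept. For the median log2 ratio it was the SD over the 3 members, which are not replicates. Only that ratio could change direction, and it did not. The causes were not tested. No paired analysis was possible because there is 1 group. Replicate 2 had 2.24 times the peaks of replicate 1, so members in replicate 2 alone rest on 1 library. A missing peak means that none was called at this depth, not that a promoter is closed in every cell.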
